A study of Mus musculus with 9 samples.

Results

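The genes described are 10 kinases, checkpoint proteins and partners that drive and guard mitosis: the spindle checkpoint genes Bub1, Bub1b, Mad2l1 and Ttk, their target Cdc20, the kinase genes Aurka and Plk1, and the chromosomal passenger genes Aurkb, Birc5 and Incenp. They were chosen by name, and every probe set of the array that is annotated to 1 of these genes alone was taken, which gave 22 probe sets of 45101 and all 10 genes of 18193. RNA came from invariant natural killer T (iNKT) cells, T cells with a nearly fixed receptor for lipids on CD1d, sorted from the thymus of mice 8 to 12 weeks old. There were 5 arrays of Utx wildtype cells (WT1 to WT5) and 4 of Utx knock out cells (KO1 to KO4), titled as biological replicates, with animals matched for sex and age. Utx, encoded by Kdm6a, removes a repressive methyl mark from histone H3, and the arrays ask what its loss does to expression in these cells. The labels do not say how Utx was deleted, in which cells, or on which gate the iNKT cells were sorted.

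As background, a cell enters mitosis when cyclin B and Cdk1, aided by Aurora A and Polo-like kinase 1, become active. Kinetochores that lack microtubules recruit the kinases Ttk (Mps1) and Bub1, which help to load Mad2, and Mad2 with BubR1 (Bub1b) then holds back Cdc20, the activator of the anaphase-promoting complex. Aurora B, held at centromeres by Incenp and survivin (Birc5), releases faulty attachments so that this checkpoint can act. Transcripts of these genes are low in resting cells and peak in G2 and M phase, so that in a population their level follows the share of dividing cells. In the thymus, iNKT precursors divide before they mature, while most mature iNKT cells rest.

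The titles name 3 batches. Batch 1 is the pair WT1 and KO1, batch 2 is WT2 with KO2, KO3 and KO4, and batch 3 is WT3, WT4 and WT5, so that genotypes meet only in batches 1 and 2. Array medians lay between 5.97 and 6.09 (log2). The T cell gene Cd3e (12.87 in wildtype and 12.85 in knockout cells) and Zbtb16, the transcription factor gene of the iNKT lineage (10.95 and 10.72), were high in both genotypes, whereas Klrb1c, another iNKT marker, has no probe set of its own in the annotation. For Kdm6a the probe set of highest level read 9.97 ± 0.13 (mean ± SD over the 5 wildtype arrays) and 9.94 ± 0.21 (over the 4 knockout arrays), and none of its 4 probe sets passed the test. The labels do not give the deleted part of the gene, so this does not check them.

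Promoters of these genes are shown because the genes moved together and because the gene programme of G2 and M phase is known for a pair of promoter elements, the CHR element bound by DREAM and MuvB complexes and the CCAAT box bound by NF-Y. RefSeq's table (GRCm38.p6) holds 8 of the 10 genes, each with a window of 250 bases before to 50 after the gene's start, and not Aurkb and Incenp. In the sequences, read 5′ to 3′ on the gene's strand, capitals mark TTTGAA or TTCGAA (CHR) and CCAAT, on either strand. Shown are the genes of largest rise on the probe sets used (Cdc20 at chr4:118437294-118437593 (minus strand), Plk1 at chr7:122159185-122159484 (plus strand) and Aurka at chr2:172370521-172370820 (minus strand)), the 1 member that did not pass the test (Ttk at chr9:83834439-83834738 (plus strand)), and Mad2l1 (chr6:66534971-66535270 (plus strand)), which rose and has no match.
Cdc20: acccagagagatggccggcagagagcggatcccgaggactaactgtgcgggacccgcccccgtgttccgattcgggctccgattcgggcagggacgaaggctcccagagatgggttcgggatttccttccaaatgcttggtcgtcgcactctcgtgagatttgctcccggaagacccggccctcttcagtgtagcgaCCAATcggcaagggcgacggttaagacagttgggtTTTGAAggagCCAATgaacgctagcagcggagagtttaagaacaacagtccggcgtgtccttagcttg
Plk1: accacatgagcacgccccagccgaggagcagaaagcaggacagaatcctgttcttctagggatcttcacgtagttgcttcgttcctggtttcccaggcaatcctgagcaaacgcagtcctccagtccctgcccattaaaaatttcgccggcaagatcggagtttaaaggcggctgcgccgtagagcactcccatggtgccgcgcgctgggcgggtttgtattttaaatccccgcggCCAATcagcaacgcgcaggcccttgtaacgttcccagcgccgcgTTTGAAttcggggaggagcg
Aurka: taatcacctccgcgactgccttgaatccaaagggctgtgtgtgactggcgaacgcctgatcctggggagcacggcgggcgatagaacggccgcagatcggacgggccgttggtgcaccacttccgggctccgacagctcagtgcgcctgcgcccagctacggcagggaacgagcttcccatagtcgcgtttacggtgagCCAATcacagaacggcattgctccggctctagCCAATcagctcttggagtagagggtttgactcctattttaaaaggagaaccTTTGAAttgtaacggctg
Ttk: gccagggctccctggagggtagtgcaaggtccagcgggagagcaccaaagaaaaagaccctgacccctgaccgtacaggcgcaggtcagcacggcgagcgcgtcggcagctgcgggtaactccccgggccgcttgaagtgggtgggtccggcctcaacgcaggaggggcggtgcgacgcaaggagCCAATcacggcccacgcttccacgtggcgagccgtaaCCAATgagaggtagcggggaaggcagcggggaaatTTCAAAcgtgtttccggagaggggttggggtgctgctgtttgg
Mad2l1: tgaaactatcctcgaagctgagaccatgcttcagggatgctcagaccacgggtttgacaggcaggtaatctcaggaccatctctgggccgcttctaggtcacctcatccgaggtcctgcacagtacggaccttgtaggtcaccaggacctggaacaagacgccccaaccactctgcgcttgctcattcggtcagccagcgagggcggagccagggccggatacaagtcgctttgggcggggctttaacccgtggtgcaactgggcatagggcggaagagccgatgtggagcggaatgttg

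In Cdc20 the CHR letters start at -18, with CCAAT boxes at -53 and -8, counted from the gene's start at 1 with no base 0. In Plk1 they start at 31 with a CCAAT box at -14, in Aurka at 33 with boxes at -51 and -19, and in Ttk at 8 with boxes at -65 and -28. CHR letters were found in 6 of the 8 members (Bub1 and Bub1b besides these 4) and in 19.2% of 32851 RefSeq windows of this length. A CCAAT box was found in the same 6 members and in 37.4% of windows. Neither was found in Birc5 or Mad2l1. The E2F sites TTTCGCGC and TTTGGCGC, on either strand, were in 0 of the 8 windows and in 0.813% of all windows. A match is a description of sequence, not of binding.

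In knockout cells, 9 of the 10 genes rose and 0 fell, where of all 14524 genes tested 7.88% rose and 3.37% fell (limma with batch as a factor, adjusted p under 0.05). The median difference of the 10 was 1.74 (log2), 3.35-fold, beside a median of 0.11 over all genes. The rises ran from 2.11-fold in Mad2l1 to 5.93-fold in Cdc20, and only 41 of all genes had a larger difference than Cdc20. In these 9 genes every knockout array lay above every wildtype array, which held for 22.2% of all genes. Ignoring batch, an exact two-sided permutation test over the arrays gave p = 0.00794 for each of the 9, the smallest that 126 arrangements allow, and p = 0.0317 for Ttk. For the 9 genes this value only restates that the groups did not overlap. With genotype permuted within batches 1 and 2 only 8 arrangements exist, and exact p cannot go under 0.125. In RNA of a sorted population, more cells of a dividing type and more RNA per cell cannot be told apart.

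Bub1, the checkpoint kinase that marks centromeres through histone H2A, read 8.19, 8.91, 8.91, 8.46 and 8.41 on the wildtype arrays and 10.68, 9.91, 10.39 and 10.50 on the knockout arrays (each in the order of array number). It rose from 8.57 ± 0.32 (SD, n = 5) to 10.37 ± 0.33 (SD, n = 4), a fitted difference of 1.81 (SE 0.30, adjusted p = 0.00979). The groups did not overlap, with KO2 the lowest knockout array (9.91) and WT3 the highest wildtype array (8.91). Bub1b, whose product BubR1 is part of the complex that inhibits Cdc20, read 8.33, 8.86, 8.64, 8.70 and 8.62 in wildtype and 10.71, 9.91, 10.45 and 10.64 in knockout cells. Its difference of 1.84 (SE 0.26, adjusted p = 0.00622) was near that of Bub1, again with KO2 lowest among the knockout arrays.

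Mad2l1, which encodes the inhibitor Mad2, read 9.06, 9.30, 9.18, 9.21 and 9.19 in wildtype and 10.41, 10.04, 10.35 and 10.20 in knockout cells. Its rise was the smallest of the 9 on the probe sets used, at 1.08 (SE 0.17, adjusted p = 0.00894), and its SE was also the smallest of the 10, with an SD of 0.09 in wildtype and 0.17 in knockout cells. Ttk, the kinase at the head of the checkpoint, read 7.70, 9.01, 8.06, 8.57 and 8.30 in wildtype and 9.82, 8.97, 9.33 and 8.91 in knockout cells. Here the groups overlapped: WT2 lay above KO2 and KO4, and the wildtype SD of 0.50 was the largest of the 10. The difference of 0.88 (SE 0.40, 95% interval -0.03 to 1.80) did not pass (adjusted p = 0.174). Without WT2, which leaves batch 1 as the only contrast, the difference was 2.12. Without WT1 or KO1, which leaves batch 2, it was 0.06. The test of the difference between batches (genotype by batch interaction, limma) did not call Ttk (adjusted p = 0.165).

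Cdc20, which the checkpoint restrains until chromosomes are attached, had the largest rise on the brightest probe set of each gene. It read 8.39, 8.26, 8.19, 8.78 and 8.21 in wildtype against 10.87, 10.40, 11.19 and 11.09 in knockout cells, or 8.37 ± 0.25 and 10.89 ± 0.35. The difference was 2.57 (SE 0.28, 95% interval 1.94 to 3.20, adjusted p = 0.00292), and the gap between the lowest knockout and highest wildtype array, 1.61, was the widest of the 10. That probe set is of a type (x_at) whose probes can also bind other transcripts. On the mean of each gene's probe sets Cdc20 had 2.01, below Plk1 (2.18) and Bub1 (2.17).

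Plk1, the Polo-like kinase of centrosome maturation and mitotic entry, read 6.38, 6.76, 6.41, 6.99 and 6.49 in wildtype and 8.99, 8.50, 8.37 and 9.06 in knockout cells. It rose by 2.18 (SE 0.28, adjusted p = 0.00447), 4.52-fold, and here KO3 was the lowest knockout array. Aurka, the kinase of spindle poles that activates Plk1, read 7.19, 7.63, 7.44, 7.73 and 7.22 in wildtype and 9.59, 8.73, 9.11 and 9.61 in knockout cells. Its rise was 1.88 (SE 0.30, adjusted p = 0.00932), 3.67-fold. Both kinases had KO1 and KO4 high and KO2 and KO3 lower.

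The chromosomal passenger genes rose as well, by less than Aurka on the brightest probe sets. On probe set means Aurkb had 1.99 and Aurka 1.07, but these means do not rank the 2 genes. That of Aurka includes a probe set under the filter level in both groups (1440129_at, 0.25). That of Aurkb includes 1424128_x_at (2.31), of the type whose probes can also bind other transcripts. Aurkb, the kinase of the complex, read 7.50, 8.14, 7.60, 7.93 and 8.05 in wildtype and 9.86, 8.94, 9.40 and 9.72 in knockout cells, a difference of 1.67 (SE 0.31, adjusted p = 0.0141), 3.19-fold. Birc5, which encodes survivin, read 10.68, 11.23, 10.81, 11.15 and 10.96 against 12.47, 11.99, 12.06 and 12.31, and rose by 1.25 (SE 0.23, adjusted p = 0.0139), 2.38-fold. Incenp, the scaffold of the complex, read 10.89, 10.93, 11.08, 10.90 and 10.87 against 12.28, 11.83, 12.46 and 12.65, and rose by 1.39 (SE 0.23, adjusted p = 0.0110), 2.62-fold. In all of these genes KO2 was the lowest knockout array and no groups overlapped. The call of Incenp ended without WT2, at nearly the same difference (1.40, adjusted p = 0.0757), whereas the other 8 genes called kept their call with each of the 9 arrays left out. Borealin (Cdca8), the remaining subunit of the complex, rose by 1.44 (adjusted p = 0.0221).

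**Figure D1:**
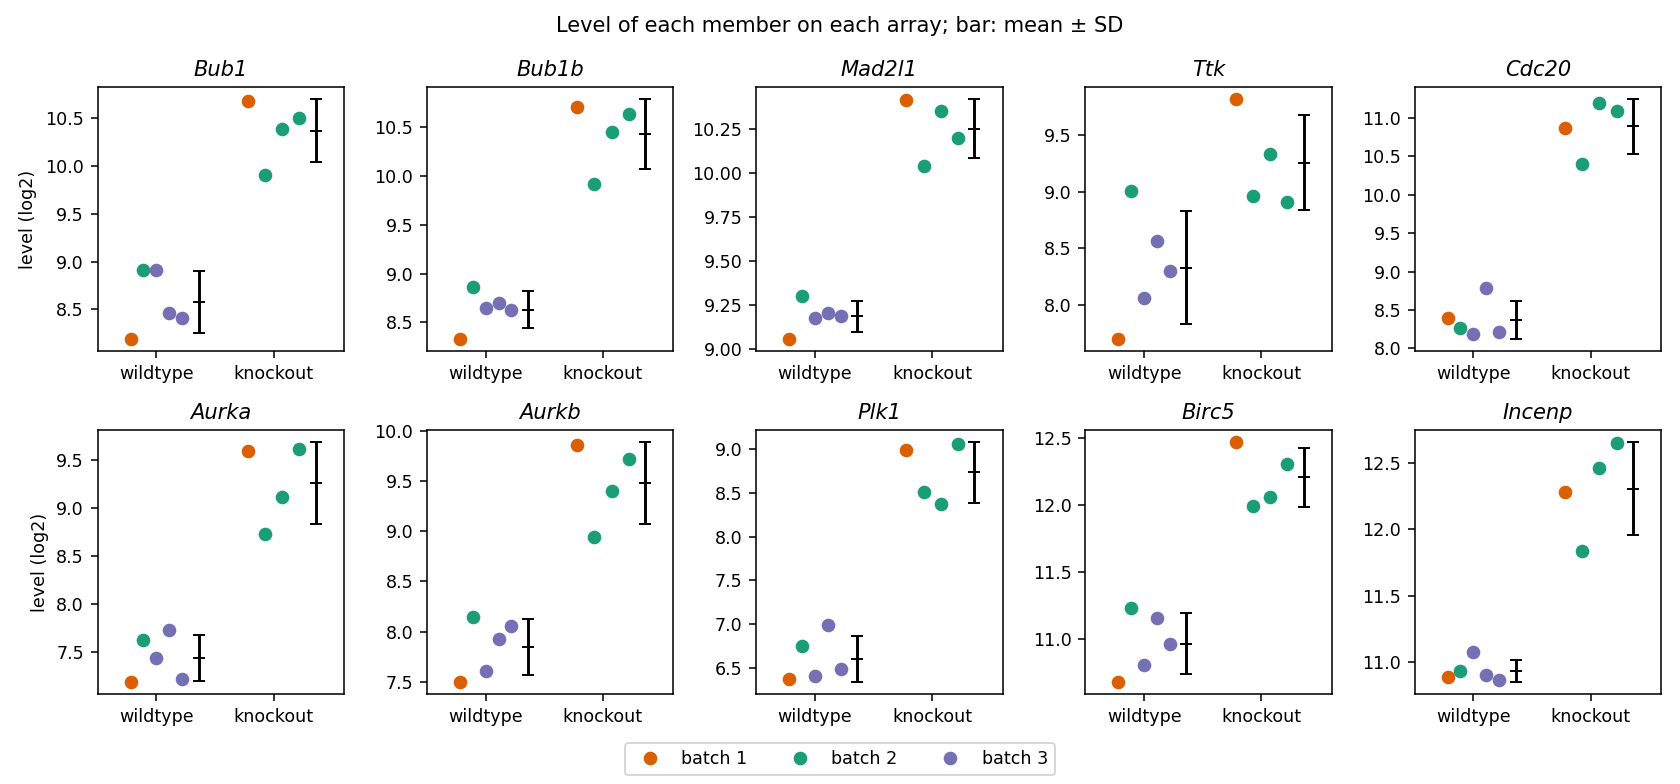
Level (log2) of each of the 10 genes on each array, by genotype, with points coloured by batch and bars for the mean ± SD (wildtype n = 5, knockout n = 4; the y axes differ and do not start at 0). In 9 genes all knockout arrays lie above all wildtype arrays, while in Ttk WT2 (9.01) lies above KO2 (8.97) and KO4 (8.91).

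In order of size, the fitted differences on the brightest probe sets ran from Cdc20 (2.57) over Plk1 (2.18), Aurka (1.88), Bub1b (1.84), Bub1 (1.81), Aurkb (1.67), Incenp (1.39), Birc5 (1.25) and Mad2l1 (1.08) to Ttk (0.88). The 95% intervals of all neighbours in this order overlapped. All 10 genes were higher within batch 1 and within batch 2, as were 39.0% of all genes, and in 9 of the 10 the difference was larger in batch 1. The median was 2.37 in batch 1 and 1.37 in batch 2, and over all genes tested it was -0.0056 and 0.19. The share of all genes with a larger difference in batch 1 was not counted. Among genes described below, Cdk1 (2.37 and 1.51) and Top2a (1.84 and 0.98) were also larger in batch 1. Nuf2 (2.58 and 2.94) and Cdc6 (2.33 and 2.92) were larger in batch 2. Cdc20 (2.47 and 2.63) and Incenp (1.40 and 1.38) differed least between batches, and Ttk (2.12 and 0.06) most. The test of the difference between batches (genotype by batch interaction, limma) called 0 of the 10, with 3 at an unadjusted p under 0.05, namely Ttk (2.06 larger in batch 1, adjusted p = 0.165), Birc5 (0.90, adjusted p = 0.352) and Bub1 (1.13, adjusted p = 0.369). Over all genes it called 0.0207%, and 13.3% had an unadjusted p under 0.05. Without the 3 arrays of batch 3, which add only to the estimate of the spread, 5 of the 10 genes were called, and Mad2l1, Aurkb, Birc5 and Incenp had adjusted p of 0.0549 to 0.0607.

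**Figure D2:**
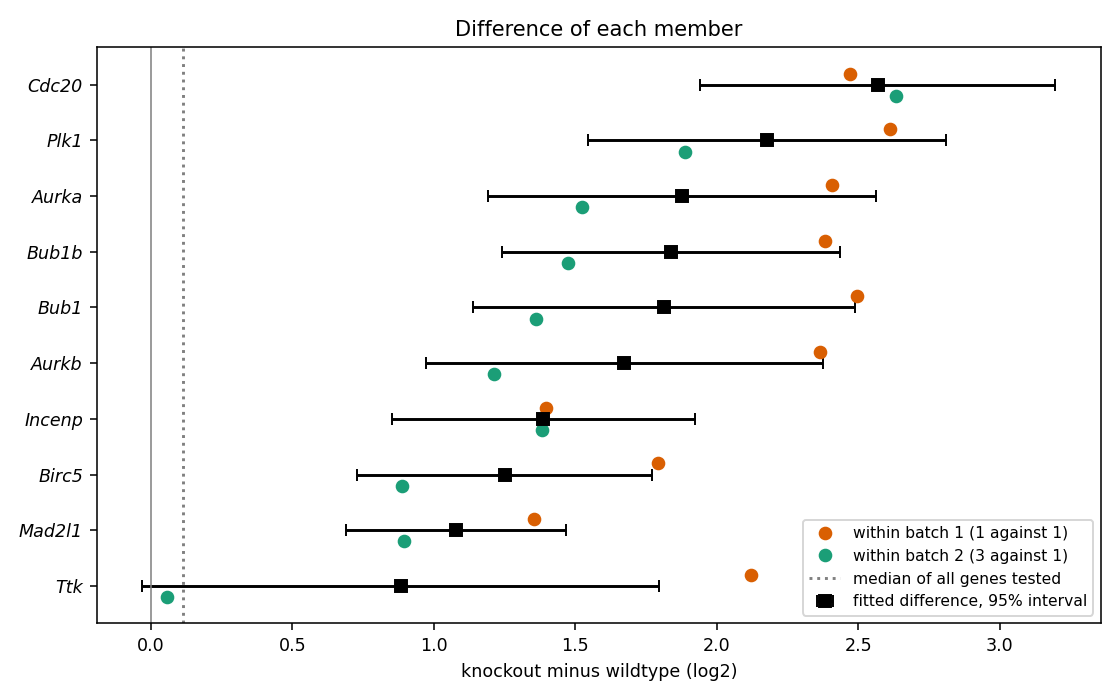
Difference of each gene, knockout minus wildtype (log2): squares are fitted values with 95% intervals over all 9 arrays, and circles are differences within batch 1 and within batch 2. All circles lie above 0, and only the interval of Ttk (-0.03 to 1.80) reaches below it.

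Most members have more than 1 probe set, and these did not all move alike. Of the 22, 16 rose and 0 fell when tested among all 45037 probe sets other than controls, of which 3.73% rose, and in 17 all knockout arrays lay above all wildtype arrays (15.7% of all probe sets). Cdc20 rose on each of its 3 probe sets (2.57, 1.59 and 1.88, adjusted p 0.00537 to 0.0234), of which that of 2.57 (1439377_x_at) and that of 1.88 (1439394_x_at) are of a type whose probes can also bind other transcripts. On 1416664_at, which is not of that type, the rise was 1.59. Aurkb rose by 1.67 and 2.31 on its 2 probe sets, the latter (1424128_x_at) also of the type open to other transcripts. Bub1 rose by 1.81 and 2.52. The lower level of the second Bub1 probe set, 4.08 ± 0.43 in wildtype and 6.55 ± 0.60 in knockout cells, starts under the filter used for genes (4.54).

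For Ttk the 2 probe sets gave different calls at like differences. On 1442594_at it read 6.46, 7.02, 6.75, 6.72 and 6.76 in wildtype and 8.04, 7.42, 7.67 and 7.64 in knockout cells. No arrays overlapped there, and the difference of 0.97 passed (adjusted p = 0.0442), whereas on the brighter probe set that stands for the gene 0.88 did not. The wildtype SD was 0.20 on the former and 0.50 on the latter.

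Of the 6 probe sets that did not pass, 1 is that of Ttk. Bub1b rose by 1.84 and 1.54 on 2 probe sets but had a difference of -0.25 (adjusted p = 0.492) on 1447362_at. Incenp has 5 probe sets: besides the one used (1439436_x_at, also of the type open to other transcripts), 1423092_at rose by 2.09 (adjusted p = 0.0221), 1439252_at had 1.59 (adjusted p = 0.0830), and 1423093_at and 1441314_at had 0.12 and -0.28 (adjusted p = 0.828 and 0.410). Aurka's second probe set, 1440129_at, read 4.06 ± 0.24 and 4.30 ± 0.26, under the filter level in both groups, with a difference of 0.25 (adjusted p = 0.535). Whether these probe sets measure the same transcripts was not tested, and their probe sequences were not used here. With the mean of a gene's probe sets in place of the brightest one, the median of the 10 genes was 1.16 and 9 of them were still called.

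**Figure D3:**
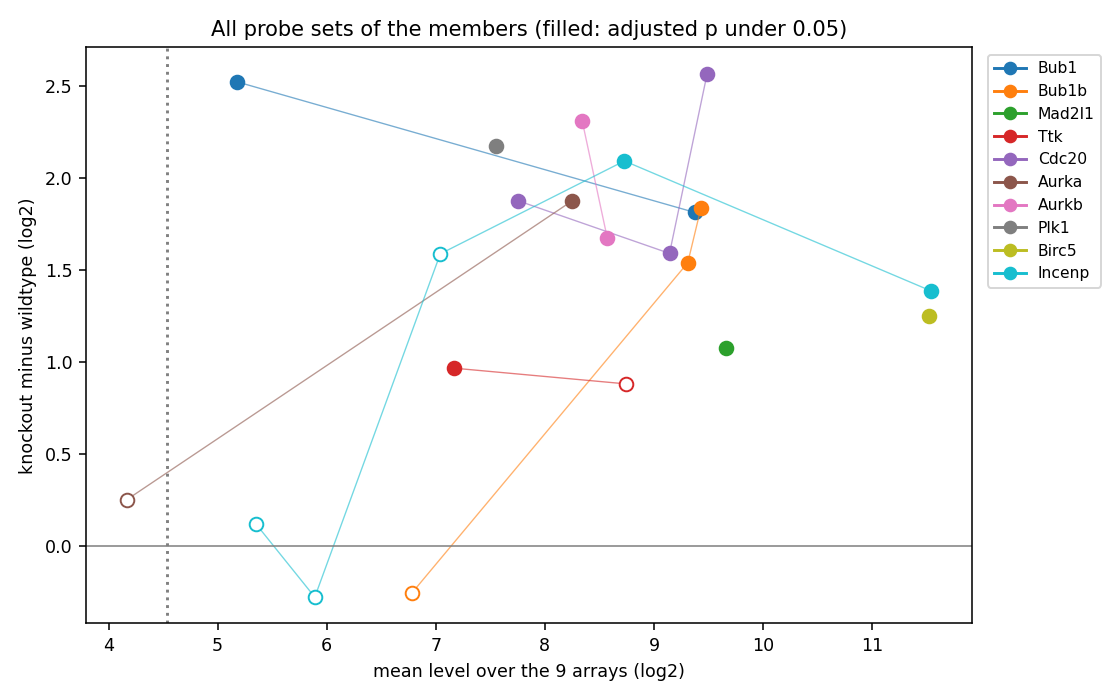
Difference (log2, knockout minus wildtype) of all 22 probe sets against their mean level over the 9 arrays (log2), with lines joining probe sets of a gene, filled circles for adjusted p under 0.05 and a dotted line at the filter level of 4.54. Of the 22, 16 are filled, and Bub1b and Incenp each have 1 probe set below 0 (-0.25 and -0.28).

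Partners of the checkpoint rose as well. Beside the counts of this list and those that follow, 7.88% of all genes rose and 3.37% fell. Of 18 other checkpoint and kinetochore genes, 11 rose and 0 fell, with a median difference of 1.61. All subunits of the Ndc80 complex, which binds microtubules, were among them: Nuf2 rose by 2.80, Spc25 by 2.67, Spc24 by 2.40 and Ndc80 by 2.01 (adjusted p 0.00207 to 0.0024). Bub3, the partner that brings Bub1 and BubR1 to kinetochores, had a difference of 0.54 (adjusted p = 0.0706), although its knockout arrays all lay above the wildtype arrays.

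A further 25 genes were other mitotic kinases and activators, targeting subunits or inhibitors of Aurora, Polo and Cdk1 kinases. Of these 13 rose and 0 fell, with a median of 1.43. Plk4, the kinase of centriole duplication, rose by 2.46, Ccnb2, which encodes cyclin B2, by 2.16, and the kinase genes Pbk and Melk by 2.13 and 1.90 (adjusted p 0.00281 to 0.00363). Cdk1, the main mitotic kinase, rose from 9.29 ± 0.24 to 11.12 ± 0.20, a difference of 1.86 (SE 0.22, adjusted p = 0.00409), while Ccnb1 has no probe set of its own. Other relatives of Polo and Aurora kinases had negative differences that did not pass. Plk2, which responds to stress, had -0.64 (adjusted p = 0.165) and the germ cell kinase gene Aurkc had -0.32 (adjusted p = 0.328). Plk3 had -0.86 (adjusted p = 0.0589), with all knockout arrays lower, which held for 12.7% of all genes.

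Of 20 genes of the anaphase-promoting complex, its cofactors and its substrates, 6 rose and 0 fell, with a median of 0.50. Espl1, the protease separase that opens cohesin, rose by 1.90, Fbxo5, an inhibitor of the complex, by 1.36, and its E2 enzymes Ube2c and Ube2s by 1.54 and 0.98 (adjusted p 0.00636 to 0.0300). The 2 others called were the subunits Cdc23 (0.82) and Anapc7 (0.77), and the remaining core subunits had differences of -0.03 to 1.02 that did not pass. Fzr1, the activator that takes over from Cdc20 after mitosis, had 0.46 (adjusted p = 0.0928). With single arrays left out 3 to 5 genes of the list were called: 3 without WT2, WT5, KO3 or KO4. Ube2s kept its call only without WT3, WT4 or KO2; in the other fits it had 0.89 to 1.13, with adjusted p from 0.0524 up to 0.124.

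Among 18 genes of PP1 and PP2A, phosphatases that oppose these kinases, and their inhibitors, the median difference was 0.18, beside 0.11 over all genes. In 9 of the 18 all knockout arrays lay above all wildtype arrays, which held for 22.2% of all genes. By the test 3 rose and 0 fell. The 3 were Ppp2r5d (0.84), Ppp1r7 (0.83) and Ppp2cb (0.67), with adjusted p of 0.0206 to 0.0476. None was called after a further quantile normalization or without WT2, and 1 without WT1, WT3, WT4, WT5, KO1, KO3 or KO4.

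Regulators of the G2 and M programme moved both ways. Of 15, 7 rose and 1 fell, with a median of 0.25. Mybl2 (B-Myb) rose from 5.63 ± 0.21 to 7.09 ± 0.37, a difference of 1.52 (SE 0.27, adjusted p = 0.0132), Lin9 of the MuvB core by 1.20 (adjusted p = 0.0277) and Foxm1, on a probe set open to other transcripts, by 1.35 (SE 0.31, adjusted p = 0.0297). The pocket protein genes moved apart: Rbl2 (p130), typical of resting cells, fell from 10.16 ± 0.07 to 9.06 ± 0.19 (difference -1.09, SE 0.17, adjusted p = 0.00894), and Rbl1 (p107), typical of cycling cells, rose from 9.86 ± 0.14 to 10.87 ± 0.17 (1.03, SE 0.18, adjusted p = 0.0129). Both pocket protein calls ended without WT2 at like differences (-1.16, adjusted p = 0.0502, and 0.99, adjusted p = 0.102). Foxm1 kept its call only without WT2 or KO2 (otherwise 0.89 to 1.39, adjusted p 0.0513 to 0.0996), and Lin9 only without WT3, WT4, WT5 or KO2 (otherwise 1.09 to 1.31, adjusted p 0.0503 to 0.134). With single arrays left out 2 to 7 of the list rose, 3 or fewer in all such fits but that without KO2, and after a further quantile normalization 4.

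Of 20 genes of S phase and proliferation, 14 rose and 0 fell, with a median of 0.90. The licensing gene Cdc6 rose by 2.69, Cdc45 of the replicative helicase by 1.79, Top2a, the topoisomerase of dividing cells, by 1.32, and Rrm1 of ribonucleotide reductase by 1.21 (adjusted p 0.00386 to 0.00956). Mki67, the gene of the Ki-67 antigen, rose from 10.93 ± 0.35 to 12.30 ± 0.26 (1.37, SE 0.29, adjusted p = 0.0229), and without WT1 or KO1 the difference was 0.90 (adjusted p = 0.0712). Without WT2 the list had 7 rises, and without WT1 or KO1 it had 9.

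**Figure D4:**
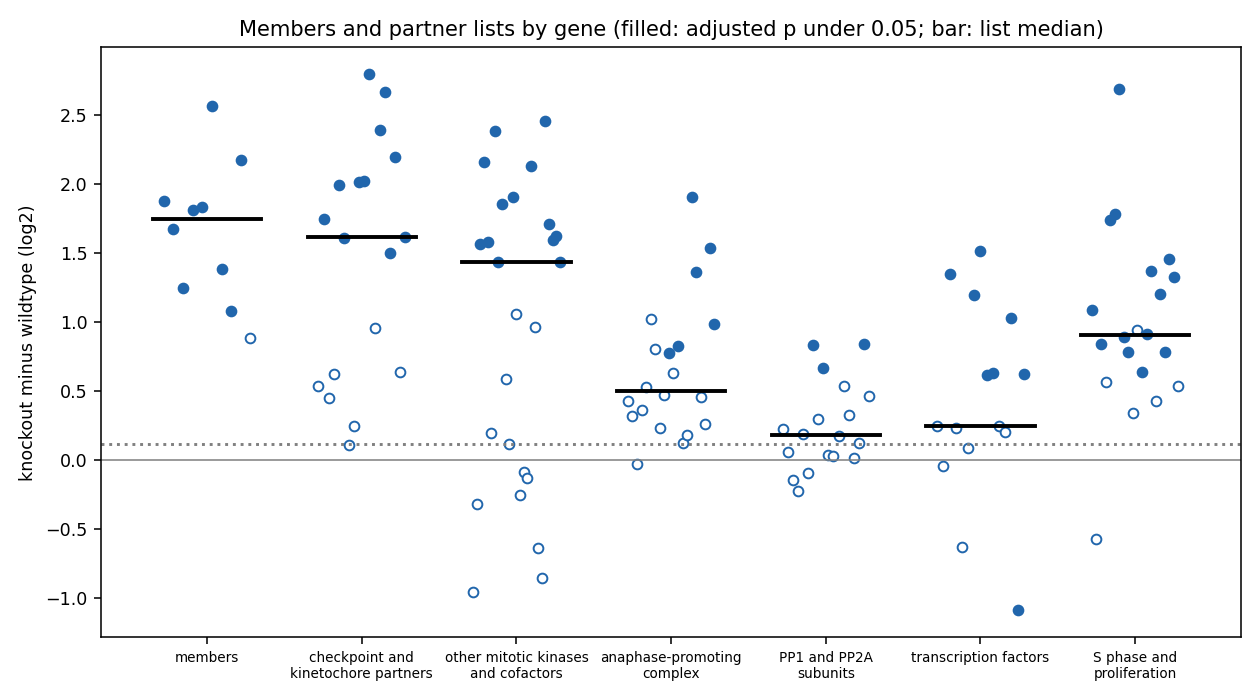
Difference of each gene (log2, knockout minus wildtype) for the 10 members and the 6 lists of partners, with filled circles for adjusted p under 0.05, bars for list medians and a dotted line at the median of all genes (0.11). The members (1.74), checkpoint partners (1.61) and other mitotic kinases with their cofactors (1.43) have the highest medians, and the PP1 and PP2A list (0.18) the lowest.

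Across the 9 arrays, which share genotype and batch, the 5 genes whose levels followed the mean of the 10 members most closely were Ano6, a phospholipid scramblase (Pearson r = 0.999), Shcbp1, an adaptor of dividing cells (0.998), Ptcra, the pre-T cell receptor alpha chain (0.998), the histone chaperone gene Rbbp7 (0.998) and Aqp11 (0.998). Ptcra and Aqp11 are also in the list of double-positive thymocyte markers. Ptcra read 8.37 to 8.81 in wildtype cells and 10.20, 10.88 and 10.94 in KO2, KO3 and KO4, with KO1 higher still, so KO2 was lowest here too. Rbbp7 differed by 0.25 (adjusted p = 0.249), with an SD of 0.03 and 0.04 within groups, so closeness in pattern says nothing of size.

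Many markers of other thymic cells, and of iNKT precursors, were also higher in knockout cells. The share of all genes that were higher was not counted, and 7.88% were called higher. Double-positive thymocytes, with CD4 and CD8, are the stage from which iNKT cells also arise, and 11 of 11 of their tested markers were higher in knockout cells, 8 of them called. The mean level of the list ran from 10.01 to 10.46 on wildtype and from 11.14 to 11.73 on knockout arrays. Of 12 tested macrophage and dendritic cell markers 10 were higher and 3 called (Csf1r, Cd68 and Lyz2), with means of 5.24 to 5.82 and 6.25 to 7.14, while Itgam, Cd14 and Xcr1 lay under the filter on low levels. Of 8 B cell markers 6 were higher and 2 called, Cd79a and Cd79b (list means of 6.27 to 6.60 and 6.88 to 7.78). Pax5 (-0.17) and Ebf1 (-0.05) were lower and not called. Of 9 iNKT precursor markers all 9 were higher and 3 called, Cd24a, Sox4 and Myb (11.16 to 11.41 and 11.64 to 11.93).

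Of the 9 tested iNKT markers 0 were higher and 4 fell (Il2rb, Cd44, Tbx21 and Klrd1), with list means of 12.17 to 12.29 on wildtype and 11.49 to 11.85 on knockout arrays. The erythroid list had only Slc4a1 above the filter or with a probe set of its own, at -0.42 (adjusted p = 0.0983). Of the 6 granulocyte, 9 stromal and 4 NK cell markers tested, 0, 1 (Col1a1) and 0 were called, with list means of 4.73 to 6.56, 5.57 to 5.74 and 7.74 to 7.96 on wildtype and 5.13 to 7.78, 5.87 to 6.01 and 7.79 to 8.16 on knockout arrays. By array, the median member lay 2.05, 1.19, 1.61 and 1.90 above the wildtype mean in KO1 to KO4, and double-positive thymocyte markers had means of 11.73, 11.14, 11.56 and 11.53. KO2 was lowest and KO1 highest in both. Among wildtype arrays WT1 was lowest in both (-0.27 and 10.01) and WT2 highest (0.21 and 10.46). Over all genes tested, the deviations of WT1 and KO1 from their group means correlated at -0.92. Opposite deviations of WT1 and KO1 are therefore not particular to these lists. The share of genes with a low WT1 and a high KO1 was not counted. In the iNKT precursor list, too, KO2 and WT1 were lowest and KO1 and WT2 highest of their genotype. There KO3 lay above KO4 (11.90 and 11.72), unlike in the members. Not all lists had these lowest and highest arrays. B cell means were lowest in KO4 (6.88) and highest in KO3 (7.78), and granulocyte means were lowest in KO3 (5.13). The part of any of these cell types in the rise of the members was not tested.

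**Figure D5:**
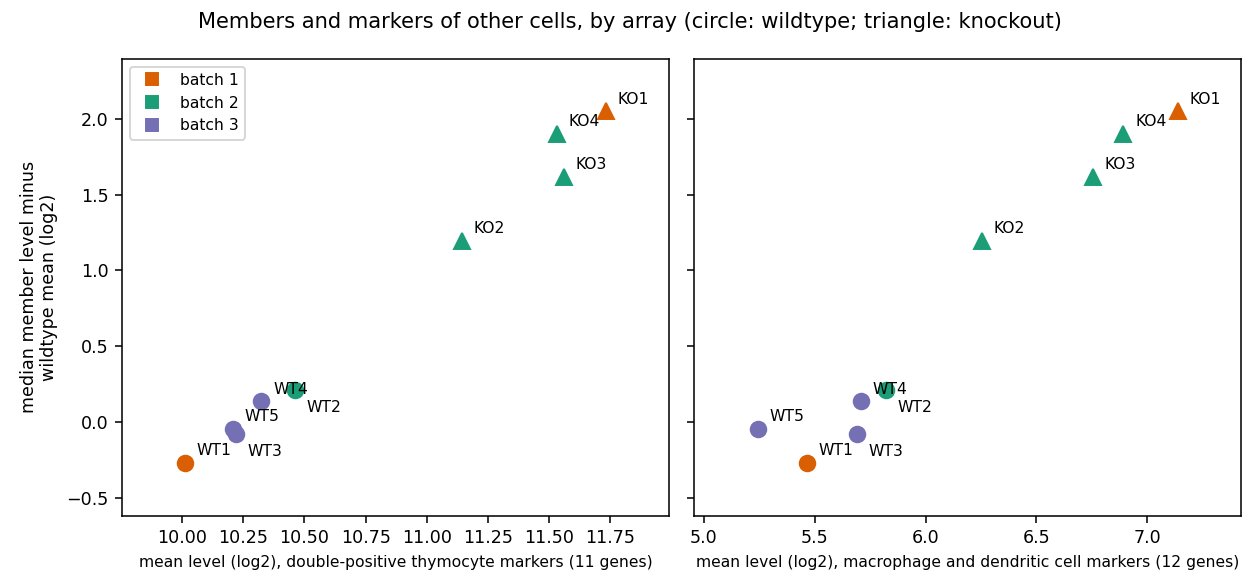
Median member level minus its wildtype mean (log2) against the mean level (log2) of double-positive thymocyte markers (left, 11 genes) and of macrophage and dendritic cell markers (right, 12 genes), 1 point per array. Knockout arrays lie apart from wildtype arrays on all axes, with KO2 nearest to wildtype.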

How the data were processed

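The authors deposited log2 values for each probe set on each array, made with RMA (background correction, quantile normalization and probe summary) per the submitters' processing notes, from RNA amplified with a kit for small inputs per the labels' protocols, steps that can compress differences. Whether values were adjusted for batch is not stated there: the deviations of WT1 and KO1 from their group means correlated across genes, which are not independent, at -0.92, and those of replicates 2 to 4 at 0.02 to 0.15, so the numbers do not pair arrays. Had the authors adjusted for batch, the SEs, p-values and within-batch differences given here would not have their usual meaning, and this was not tested. Interquartile ranges were 3.45 to 3.84 on wildtype and 3.80 to 4.29 on knockout arrays. The labels do not say which animals or pools each replicate came from, so p-values measure the spread between these samples, which may be partly technical. No arrays were duplicates (smallest SD of a difference within a group 0.30). The number of arrays limits precision, and there is no read depth.

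Of 45101 probe sets, 64 were controls, 34945 had 1 gene, 932 several and 9160 none; 34741 of those with 1 gene matched the RefSeq gene table by Entrez identifier. Per gene, the one-gene probe set of highest mean was used if it lay above 4.54, the 25th percentile of the probe set means, leaving 14524 genes. limma (version 3.58.1, R 4.3.3; lmFit and eBayes, two-sided, Benjamini-Hochberg at 0.05) fitted genotype and batch on all 9 arrays, and again on 45037 probe sets without a filter; residual and prior degrees of freedom were 5 and 3.50. The fit was tested on simulated data. Adjusted p and SE are from these fits.

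Members and lists were chosen with earlier results of these data known. Named are the members, up to 4 called genes of smallest p per list and the called gene of largest opposite difference, 5 genes of closest pattern, Kdm6a, Foxm1, Mybl2, Cdk1, Ccnb1, Mki67, Bub3 and Fzr1. Plk2, Plk3, Aurkc, Cdca8, Cdc23, Anapc7 and the marker genes named were chosen after their values were seen. Alternatives covered batch, replicate number, filter, scaling, probe set, eBayes, weights, threshold and arrays left out; those for partner lists were added after seeing the data.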

Additional observations from a re-analysis of the deposited data

Results flagged for a closer look

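Of 114 groups of 4 or 5 arrays examined, 5 had an array far from the others, where chance gives about 1 in 20. In knockout cells KO2 was low for Ndc80 (9.02 against 9.42 to 9.44), Cdc45 (8.83 against 9.48 to 9.60), Ptcra (10.20 against 10.88 or more) and Kdm6a (9.62 against 10.01 to 10.07). KO4 was high on the Incenp probe set 1439252_at (9.12 against 7.39 to 7.65).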

How the results depend on the processing

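Each of the 10 genes had a positive difference under all 21 alternatives of the fit, and 202 of 210 such values stayed on their side of the threshold. The count of members called was 9 with each array left out (without WT2 Ttk was called in place of Incenp), 5 without the batch 3 arrays and 10 with no batch term or with batch as a random block, 0 of them lower. Their median difference, 1.74, was 1.37 without the batch 1 pair, 1.16 with the mean of a gene's probe sets, and 1.37 to 2.37 with single arrays left out, since a fit without WT1 or KO1 keeps batch 2 alone and one without WT2 keeps batch 1. The median of all genes, 0.11, ran from -0.0056 (without WT2) to 0.19. In a fit with the replicate number as a block in place of batch, 9 members were called (median 1.72) and 4290 genes. In all, 1634 genes were called, against 6342 with no batch term, 10045 with batch as a random block, 534 with array weights, 340 without the batch 3 arrays, 336 and 3033 at adjusted p of 0.01 and 0.1, and 860 to 2054 with single arrays left out. Of the calls 1144 were higher, and 1042 of 1789 after a further quantile normalization. Partner lists moved more than the members: with batch as a random block 18 of 20 anaphase-promoting complex genes were called, and without the batch 3 arrays 0 of 15 regulators. CHR letters were in 6 and CCAAT boxes in 5 of the 8 windows when only the last 150 bases of each window were searched.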
